A study of Mus musculus with 7 samples.

Results

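The imprinted growth network genes are 10 named genes (Grb10, Peg3, Mest, Plagl1, H19, Meg3, Dlk1, Cdkn1c, Ndn and Sgce) whose expression depends on the parent an allele came from. Many of them act on fetal growth or cell division. They were taken by name from a count table of 55401 genes, by a rule that uses no measured value, although the list was drawn up with earlier results of these data known, and all 10 were found and tested. The libraries came from right lung lobes of 7 male C57BL/6 mice, aged 6 to 8 weeks, all of which had been instilled with bleomycin, an antibiotic that injures the lung and leads to fibrosis. In 3 of them (BLM+HBO), hyperbaric oxygen (HBO, oxygen breathed in a pressure chamber) was given at 2.5 ATA for 90 min per day in 14 daily exposures from day 7, and the other 4 (BLM) had none. The records of the BLM mice give the same time in the chamber without pressurized oxygen, while the study's methods call its control group untreated, and whether both mean the same is not settled. Lungs were collected on day 21, and no uninjured mouse was among the libraries. Mice that lost too little weight after bleomycin had been left out by the study, so both groups hold mice with weight loss.

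Imprinted genes carry methylation marks set in the egg or the sperm, so that the copy from 1 parent is expressed and the other is largely silent. Many lie in clusters ruled by a shared control region, and many act on growth, with paternally expressed genes often promoting it and maternally expressed genes often restraining it. Several are high in the fetus, decline after birth and remain in stromal and progenitor cells of adult tissues, and some return during repair of injured tissue. Read counts without parental polymorphisms do not separate the alleles, so the values below are sums over both copies. In whole lung, fewer cells of a type and less RNA per cell cannot be told apart.

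By edgeR, 4 genes passed the study's thresholds (a P below 0.05 before adjustment and more than a 1.5-fold change), which the study applied to DESeq2. The stretches upstream of their start sites are shown because CG pairs carry the DNA methylation on which imprinting rests. Whether any of them is itself a control region of its cluster was not examined. They are from RefSeq on GRCm38.p6 and read 5′ to 3′ on the strand of the gene, with each CG pair in capitals. Bases that belong to exons were left out, so the stretches of Grb10, Mest and Plagl1 lie in introns of longer annotated transcripts of the same genes, and that of Peg3 lies between genes. Grb10 (chr11:12037421-12037670, minus strand) held 40 CG pairs in 250 bases, Mest (chr6:30737800-30738049, plus strand) 14 in 250, Plagl1 (chr10:13090582-13090690, plus strand) 7 in 109, and Peg3 (chr7:6730432-6730577, minus strand) 5 in 146.
Grb10: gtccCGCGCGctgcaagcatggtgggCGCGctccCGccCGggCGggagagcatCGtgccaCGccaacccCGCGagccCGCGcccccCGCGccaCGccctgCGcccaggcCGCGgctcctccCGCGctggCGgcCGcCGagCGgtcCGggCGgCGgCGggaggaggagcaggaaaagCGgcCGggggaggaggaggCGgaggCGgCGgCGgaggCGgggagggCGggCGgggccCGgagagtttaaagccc
Mest: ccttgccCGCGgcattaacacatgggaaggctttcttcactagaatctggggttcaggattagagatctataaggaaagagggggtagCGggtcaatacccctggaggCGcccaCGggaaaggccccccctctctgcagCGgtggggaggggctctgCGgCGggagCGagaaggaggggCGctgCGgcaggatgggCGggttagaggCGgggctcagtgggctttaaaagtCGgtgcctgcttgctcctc
Plagl1: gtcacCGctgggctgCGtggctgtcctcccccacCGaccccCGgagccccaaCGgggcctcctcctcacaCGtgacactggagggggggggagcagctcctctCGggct
Peg3: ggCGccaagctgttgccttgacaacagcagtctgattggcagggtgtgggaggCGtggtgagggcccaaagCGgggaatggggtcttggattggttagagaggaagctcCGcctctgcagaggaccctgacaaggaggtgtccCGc

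The Peg3 stretch is the whole gap of 146 bases between the start of Peg3 and the start of Usp29, which is read in the opposite direction. The 2 neighbours gave 4579 and 23 reads over the 7 mice. Promoter windows of 300 bases (250 before and 50 after a start) were found for 7 of the 10 genes, 11 windows in all. Of these, 10 held more CG pairs than the median of 7 pairs over 32851 RefSeq windows, as did 48.65% of all windows. Windows of 1 gene can overlap, as 2 of Mest do (starts at 30737800 and 30737803). Grb10 held 45 pairs in its richest window, a number reached by 1.93% of windows, followed by Plagl1 with 26 (16.9%), Mest with 17 (31.4%) and Peg3 with 13 (37.9%). Because the study concerns oxygen, the core letters of the hypoxia response element, ACGTG and GCGTG, were searched on both strands, where CACGTG counts once per strand. Either core was in 5 of the 11 windows (1 each of Grb10, Peg3, Plagl1, Dlk1 and Ndn) and in 43.8% of all windows, so the share by window was near the background. By gene, 5 of the 7 held a core, and the share over all genes was not computed. A match of letters is not a binding site. No methylation was measured in these samples.

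The libraries held 18157161 to 26365969 counts, and libraries of the same group differed by more than sampling noise. On the first principal component, which held 37.3% of the variance, BLM+HBO 2 (-0.996) lay next to the BLM mice (-47.6 to -6.08) and apart from BLM+HBO 1 (54.8) and BLM+HBO 3 (37.8).

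Per length, Cdkn1c was the highest of the 10 genes and Dlk1 the lowest. The mean level over the 7 mice was 13.9 CPM per kb of exon for Cdkn1c, 12.2 for Grb10, 7.06 for Mest, 5.28 for Sgce, 5.23 for Ndn, 3.6 for Plagl1, 2.50 for Peg3, 1.35 for H19, 1.29 for Meg3 and 0.0928 for Dlk1, where CPM is the count scaled by the effective library size, with TMM factors. Grb10 lay above Mest, Peg3 above H19, and Meg3 above Dlk1 in 7 of 7 mice. The other neighbours in this order changed places in at least 1 mouse: Cdkn1c exceeded Grb10 in 5 of 7 mice, Mest exceeded Sgce in 6, Sgce exceeded Ndn in 4, Ndn exceeded Plagl1 in 6, Plagl1 exceeded Peg3 in 4, and H19 exceeded Meg3 in 3. The length is the union of all annotated exons, so genes with many long isoforms, such as Meg3, come out low on this scale. The spread over the 7 mice, which takes in the difference between the groups, also differed by gene. For Mest the lowest mouse was BLM+HBO 1 at 7.56 CPM, and the BLM mice alone ran from 28.7 to 40.8 CPM. The highest mouse was 5.40 times the lowest for Mest, 5.35 times for Peg3, 4.40 times for H19 and 4.05 times for Meg3, against 1.63 for Cdkn1c, 1.47 for Ndn and 1.36 for Sgce.

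**Figure D1:**
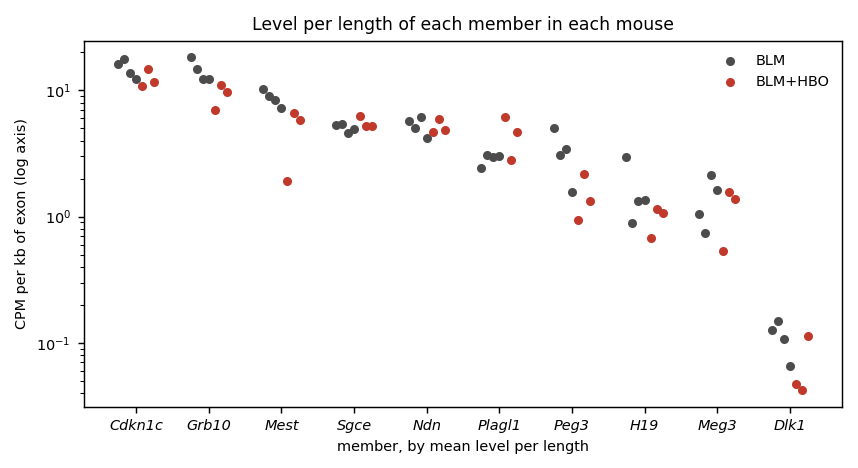
Level per length of the 10 imprinted genes in each mouse, in CPM per kb of exon on a log axis, with BLM mice in grey and BLM+HBO mice in red. Sgce, Ndn and Cdkn1c form tight columns, Mest, Peg3, H19 and Meg3 spread widely, and Dlk1 lies below all others.

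Between the groups, 4 of the 10 genes passed both thresholds by edgeR's quasi-likelihood test: Grb10, Peg3 and Mest were lower in BLM+HBO and Plagl1 was higher. Over all 17465 tested genes, 6.29% passed, 2.89% lower and 3.4% higher. The log2 fold change was negative for 8 of the 10 and for 48.8% of all tested genes, and its median was -0.46 over the 10 and 0.0071 over all. No member, and no gene of the table, had a Benjamini-Hochberg adjusted P below 0.05 by edgeR, where the lowest adjusted P was 0.423 and 1861 genes (10.7%) had an unadjusted P below 0.05. DESeq2 gave 147 genes at adjusted P below 0.05, none of them a member. The count of 4 rests on BLM+HBO 1. Without this mouse, 0 of the 10 and 659 of 17831 tested genes passed both thresholds. With all mice, 4 of the 10 and 1098 of 17465 passed. BLM+HBO 1 is the lowest of the 7 mice for 6 of the 10 genes, against 19.8% of all tested genes. Without BLM 1, the highest mouse for 4 of the 10 (20.3% of all tested genes), 2 of the 10 and 706 of 17249 tested genes passed.

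**Figure D2:**
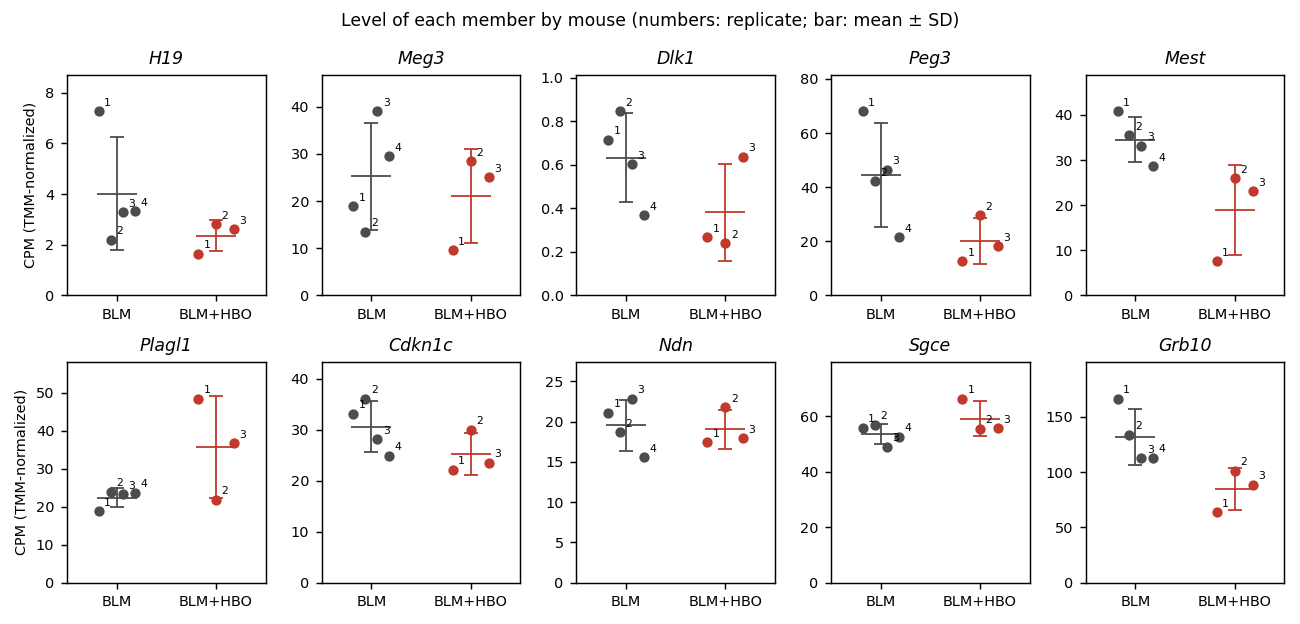
CPM of each imprinted gene in each mouse, on linear axes that start at 0, with the mean and SD of 4 BLM mice (grey) and 3 BLM+HBO mice (red) and the replicate number beside each point. The groups do not overlap for Grb10 and Mest, and BLM+HBO 1 is the lowest point for Grb10, Mest, Peg3, H19, Meg3 and Cdkn1c and the highest for Plagl1 and Sgce.

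Among the genes that restrain growth signals, Grb10 had the smallest P. Grb10 (ENSMUSG00000020176.17, chr11:11930508-12038683, GRCm38) encodes an adaptor that binds activated insulin and IGF1 receptors and damps their signal, and it is expressed from the maternal allele outside neurons. Its level was 166, 134, 113 and 113 CPM in BLM 1 to 4 and 63.9, 101 and 88.4 CPM in BLM+HBO 1 to 3. All 3 BLM+HBO mice lay below all 4 BLM mice. The mean was 131 ± 25.3 CPM (SD, n = 4) against 84.5 ± 19 (SD, n = 3). The log2 fold change by edgeR was -0.64 (SE 0.19, adjusted P = 0.423). It kept its sign with any mouse left out, between -0.79 and -0.47, but fell under the fold change of 1.5 without BLM 1 (-0.50) and without BLM+HBO 1 (-0.47).

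Cdkn1c (ENSMUSG00000037664.13, chr7:143458339-143461050), which encodes the cyclin-dependent kinase inhibitor p57 and is expressed from the maternal allele, did not pass. It stood at 33.2, 36.1, 28.2 and 24.9 CPM in BLM and at 22.1, 30.1 and 23.6 CPM in BLM+HBO, and the groups overlapped. The log2 fold change was -0.28 (SE 0.16, edgeR adjusted P = 0.572).

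Plagl1 was the member that was called higher. Plagl1 (ENSMUSG00000019817.18, chr10:13060504-13131694) encodes a zinc finger transcription factor that can halt the cell cycle and binds at other imprinted genes, and it is expressed from the paternal allele. It was 18.8, 24.0, 23.3 and 23.8 CPM in BLM and 48.5, 21.8 and 36.8 CPM in BLM+HBO. BLM+HBO 1 and 3 lay above every BLM mouse and BLM+HBO 2 lay within the BLM range. The mean was 22.5 ± 2.43 CPM (SD, n = 4) against 35.7 ± 13.4 (SD, n = 3), and the log2 fold change was 0.67 (SE 0.23, edgeR adjusted P = 0.423). Without BLM+HBO 1 it was 0.39 and passed neither threshold. Without BLM+HBO 2 it was 0.92 with an edgeR adjusted P of 0.0363, where the adjusted P over all alternatives ran from 0.0363 to 0.802.

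Of the paternally expressed genes tied to stromal and progenitor cells, Peg3 and Mest were called lower. Peg3 (ENSMUSG00000002265.17, chr7:6703892-6730431) encodes a large zinc finger protein. Its level was 68.0, 42.3, 46.4 and 21.4 CPM in BLM and 12.7, 29.6 and 18.2 CPM in BLM+HBO. BLM+HBO 2 exceeded BLM 4, so the groups overlapped. The mean was 44.5 ± 19.1 CPM (SD, n = 4) against 20.2 ± 8.60 (SD, n = 3), a ratio of 0.453, with a log2 fold change of -1.14 (SE 0.38, edgeR adjusted P = 0.423). Without BLM+HBO 1 it was -0.90 and no longer reached an unadjusted P below 0.05, and with any mouse left out it lay between -1.52 and -0.86.

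Mest (ENSMUSG00000051855.15, chr6:30723547-30748465) encodes a protein of the hydrolase fold family and carries the microRNA gene Mir335 in an intron. It was 40.8, 35.5, 33.2 and 28.7 CPM in BLM and 7.56, 26 and 23.1 CPM in BLM+HBO. All BLM+HBO mice lay below all BLM mice, and BLM+HBO 1 lay far below the other 2. Groups that do not overlap were seen for 2 of the 10 genes, Mest and Grb10, and for 8.77% of all tested genes. The mean was 34.6 ± 5.04 CPM (SD, n = 4) against 18.9 ± 9.92 (SD, n = 3), with a log2 fold change of -0.87 (SE 0.34, edgeR adjusted P = 0.441). The call was lost without BLM+HBO 1, where the log2 fold change of -0.49 was under the fold threshold. It was also lost on P without BLM 1 (-0.78), without BLM 2 (-0.86) and without BLM 3 (-0.88). Mest and Copg2 lie tail to tail and share 912 bases of their extents, where the counting leaves out reads that touch both. Copg2 itself had a log2 fold change of 0.04 (SE 0.11, edgeR adjusted P = 0.933).

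Ndn (ENSMUSG00000033585.5, chr7:62346569-62350262) encodes necdin, which binds E2F1 and restrains division, and Sgce (ENSMUSG00000004631.15, chr6:4674350-4747207) encodes epsilon-sarcoglycan of the dystrophin complex, both from the paternal allele. Ndn was 21.1, 18.7, 22.8 and 15.6 CPM in BLM and 17.4, 21.8 and 17.9 in BLM+HBO, and Sgce was 56.0, 57.1, 49 and 52.7 in BLM and 66.4, 55.6 and 55.7 in BLM+HBO. The groups overlapped for both. The log2 fold change was -0.04 (SE 0.16, edgeR adjusted P = 0.953) for Ndn, whose sign turned to values of at most 0.0463 with BLM 1, BLM 3, BLM+HBO 1 or BLM+HBO 3 left out, and 0.14 (SE 0.11, edgeR adjusted P = 0.660) for Sgce. Sgce starts 98 bases from Peg10 and is read away from it, and Peg10 had a log2 fold change of -0.14 (SE 0.34, edgeR adjusted P = 0.912).

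The long noncoding RNAs H19 and Meg3, both expressed from the maternal allele, did not pass. H19 (ENSMUSG00000000031.16, chr7:142575529-142578143), the host of Mir675 and the partner of Igf2, gave 132, 39, 60 and 63 reads in BLM and 31, 59 and 70 in BLM+HBO, or 7.27, 2.2, 3.29 and 3.32 CPM against 1.65, 2.82 and 2.62. BLM 1 stood alone at the top and the other 6 mice overlapped. The log2 fold change was -0.76 (SE 0.42, edgeR adjusted P = 0.546), and -0.31 without BLM 1. Without BLM 2 it was -0.96 and passed both thresholds. Meg3 (ENSMUSG00000021268.17, chr12:109541001-109571726) was 18.9, 13.5, 39.0 and 29.5 CPM in BLM and 9.64, 28.4 and 25.0 in BLM+HBO. Apart from BLM+HBO 1, the BLM+HBO mice lay within the BLM range, and its log2 fold change of -0.26 (SE 0.41, edgeR adjusted P = 0.852) turned positive without BLM 3 or without BLM+HBO 1. Dlk1 (ENSMUSG00000040856.17, chr12:109452823-109463336), a membrane protein related to the Notch ligands that holds back fat cell differentiation and lies in the Meg3 cluster on the paternal allele, had 13, 15, 11 and 7 reads in BLM and 5, 5 and 17 in BLM+HBO. At these low counts a difference in Dlk1 was not detected, which does not show that there was none (log2 fold change -0.68, SE 0.51, edgeR adjusted P = 0.651). BLM+HBO 3 lay above all BLM mice in reads and within their range in CPM, and with any mouse left out the log2 fold change lay between -1.31, without BLM+HBO 3, and -0.45, without BLM+HBO 2.

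**Figure D3:**
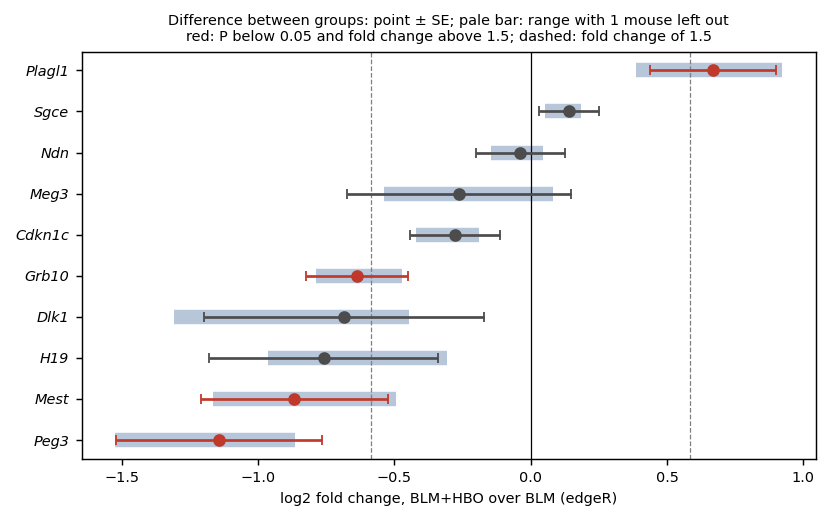
Log2 fold change (BLM+HBO over BLM) of the 10 imprinted genes by edgeR, with the SE as a bar, the range over the 7 fits with 1 mouse left out as a pale band, and genes past both thresholds in red. The bands of Meg3 and Ndn cross 0. Of the red genes, Plagl1, Grb10 and Mest have bands that reach inside the dashed lines for a fold change of 1.5. The bands of H19 and Dlk1, which are not red, also cross a dashed line.

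The growth factor that H19 is paired with was near the floor. Igf2 had 3, 5, 3 and 2 reads in BLM and 0, 0 and 2 in BLM+HBO, too few to be tested. Of 36 imprinted or linked genes in the same clusters as the 10, 27 were tested. Of these, 1 passed both thresholds, beside 6.29% of all tested genes. Tfpi2, an inhibitor of serine proteases near Sgce, was 17.1, 10.7, 6.92 and 11.6 CPM in BLM and 2.56, 8.14 and 5.10 in BLM+HBO (11.6 ± 4.19, SD, n = 4, against 5.26 ± 2.79, SD, n = 3). The ranges overlapped in part, with a log2 fold change of -1.13 (SE 0.40, edgeR adjusted P = 0.423), and the count of 1 was 0 without BLM 1 and 0 without BLM+HBO 1. Ppp1r9a (0.51, SE 0.17, edgeR adjusted P = 0.423) and Casd1 (0.30, SE 0.10, edgeR adjusted P = 0.423), also near Sgce, had positive log2 fold changes under the fold threshold. The 27 genes split into 12 positive and 15 negative log2 fold changes with a median of -0.08. In the clusters of Grb10, Cdkn1c, Ndn and Meg3, no tested neighbour passed.

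Among 25 genes of other clusters listed as imprinted, 21 were tested and 1, Dcn, passed, beside 6.29% of all tested genes. Whether Dcn, or Tfpi2 above, is imprinted in lung was not examined. Dcn, which encodes the matrix proteoglycan decorin, was 330, 212, 238 and 179 CPM in BLM and 136, 211 and 85.2 in BLM+HBO. BLM+HBO 2 lay at the level of BLM 2, so the groups overlapped. Its log2 fold change was -0.73 (SE 0.30, edgeR adjusted P = 0.446), and the count of 1 fell to 0 with BLM 1, BLM 3, BLM+HBO 1 or BLM+HBO 3 left out. Peg13 (0.28, SE 0.11, edgeR adjusted P = 0.447) and H13 (-0.24, SE 0.10, edgeR adjusted P = 0.460) were under the fold threshold. Igf2r, the receptor that clears IGF2, had a log2 fold change of -0.09 (SE 0.16, edgeR adjusted P = 0.874). The median over the 21 was -0.09.

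Of genes whose products the 10 act on or with, 35 were examined and all 35 were tested. In this list 1 passed both thresholds, beside 6.29% of all tested genes. Igf1, the insulin-like growth factor whose receptor Grb10 binds, was 197, 181, 137 and 117 CPM in BLM and 49.8, 133 and 80.8 in BLM+HBO. It was lower in BLM+HBO with an overlap at BLM+HBO 2, at a log2 fold change of -0.85 (SE 0.30, edgeR adjusted P = 0.425). The count of 1 was 0 with BLM 1, with BLM+HBO 1 or with BLM+HBO 3 left out and 2 with BLM+HBO 2 left out. The gene with the smallest P of this list, the Notch effector Hey1, had a log2 fold change of 0.35 (SE 0.11, edgeR adjusted P = 0.423), under the fold threshold, as did Dmd, the dystrophin to whose complex epsilon-sarcoglycan belongs (0.38, SE 0.15, edgeR adjusted P = 0.439). The receptors Igf1r (0.15, SE 0.10, edgeR adjusted P = 0.615) and Insr (0.14, SE 0.11, edgeR adjusted P = 0.643) did not pass. The median over the 35 was 0.06.

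**Figure D4:**
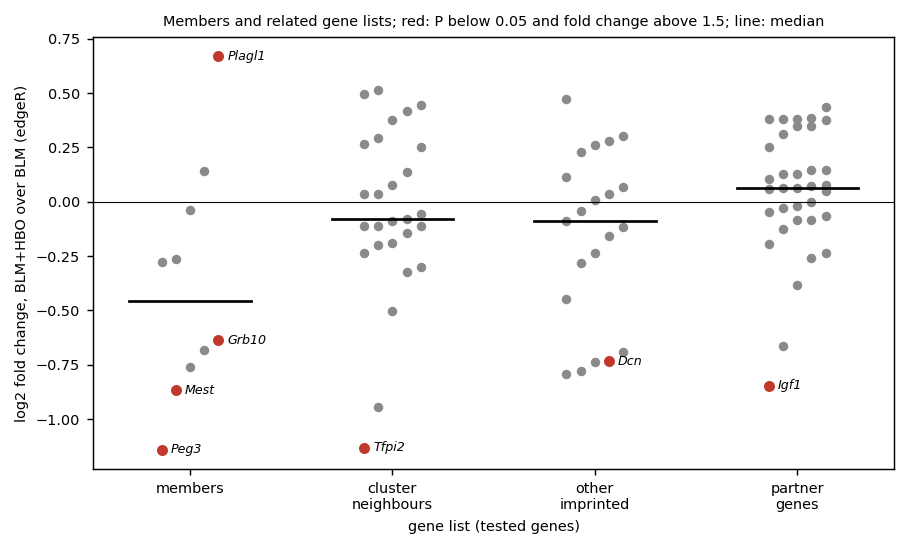
Log2 fold change (BLM+HBO over BLM, edgeR) of the 10 imprinted genes, 27 tested cluster neighbours, 21 tested imprinted genes of other clusters and 35 partner genes. Each point is a gene, the line is the median of the list, and genes past both thresholds are red and named. The medians are -0.46, -0.08, -0.09 and 0.06.

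The mice that set these values also differed in cell type markers. The counts of called markers here and below stand beside 2.89% called lower and 3.4% called higher over all tested genes. Fibroblast markers summed to 6684 to 10279 CPM in BLM and 2737 to 7056 CPM in BLM+HBO, and 5 of 12 were called lower and 1 higher. Their log2 fold changes were negative for 7 and positive for 5 of the 12. The collagen genes Col1a1, Col1a2 and Col3a1, with BLM means of 2328, 2235 and 2217 CPM, made up most of the sum. Macrophage markers summed to 4966 to 7253 CPM in BLM and 1485 to 4347 CPM in BLM+HBO, with 6 of 8 called lower. In both lists BLM+HBO 1 was the lowest mouse, as it was for Grb10, Peg3 and Mest. It was also the lowest for the sums of smooth muscle (515 CPM) and cell division markers (127 CPM), while BLM+HBO 3 was lowest for mesothelium (168 CPM). The part of these cell types in the result was not tested.

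Heart muscle markers, which in mice are also found in the walls of the pulmonary veins, summed to 74.6 to 207 CPM in BLM and 174 to 760 CPM in BLM+HBO, with 10 of 12 called higher. They summed to 760, 603 and 174 CPM in BLM+HBO 1 to 3, beside Plagl1 levels of 48.5, 21.8 and 36.8 CPM. Markers of alveolar type 2 cells, the surfactant-making cells of the lung epithelium, summed to 8777 to 16078 CPM in BLM and 11173 to 27667 in BLM+HBO, with 2 of 7 called higher. Their sums were 24201, 11173 and 27667 CPM in BLM+HBO 1 to 3, so that BLM+HBO 1 and 3 lay above all BLM mice and BLM+HBO 2 within the BLM range, as for Plagl1, and BLM 1 was the lowest mouse for both. Endothelial marker sums had the same placing against the BLM mice, at 2642, 1980 and 2516 CPM in BLM+HBO 1 to 3. BLM 1 was again the lowest mouse. The part of these cell types in the Plagl1 values was not tested.

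Markers of mesothelium (511 to 798 CPM in BLM, 168 to 569 in BLM+HBO) were called lower for 2 of 6, of cell division (228 to 271 against 127 to 252) for 3 of 9, and of smooth muscle (617 to 927 against 515 to 753) for 1 of 7. Endothelial markers (1784 to 2345 against 1980 to 2642) gave 0 of 7. Of 10 skeletal muscle markers, 6 were tested with 1 lower and 1 higher (sums of 7.65 to 12.3 against 9.34 to 17.7). Of 7 adipocyte markers, 3 were tested and 0 called (1.98 to 7.83 against 3.83 to 11.1). No marker of these lists was at 0 in every mouse. The part of these cells in the members' values was not tested.

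**Figure D5:**
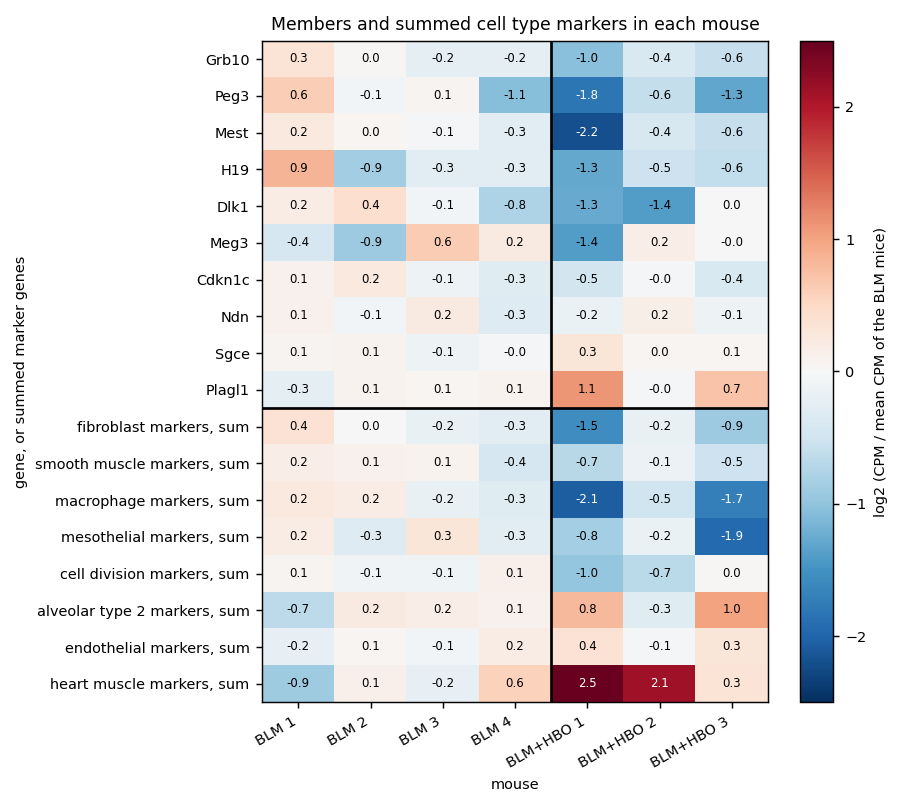
Log2 ratio of CPM to the mean of the BLM mice for the 10 imprinted genes (above the line) and for summed cell type markers (below it), in each of the 7 mice. BLM+HBO 1 is lowest for Mest (-2.2), Peg3 (-1.8) and fibroblast (-1.5), macrophage (-2.1), smooth muscle (-0.69) and cell division markers (-0.96). It is highest for Plagl1 (1.1) and for heart muscle (2.5) and endothelial markers (0.36).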

How the data were processed

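RNA from 7 bleomycin-injured mouse lungs (4 BLM, 3 BLM+HBO, 1 library per mouse) was analysed as raw counts. The authors made the deposited counts per gene by mapping trimmed paired reads to GRCm38 with Hisat2 (2.2.0 in the submitters' processing notes) and counting them with featureCounts at default settings, so that strand was not used and reads with several positions or several overlapping genes were dropped. The annotation release is not given in the sources used here. Symbols came from GENCODE vM21 and were found for 55141 of 55401 identifiers.

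Low counts were removed by filterByExpr (at least 10 reads, total 15), and the rest were scaled by TMM and tested with edgeR 4.0.16 (quasi-likelihood) in R 4.3.3 over 17465 genes, with Benjamini-Hochberg adjustment over all of them. The common biological coefficient of variation was 0.222. The thresholds were those of the study, a P below 0.05 before adjustment with more than a 1.5-fold change. The study applied them to DESeq2 results and they were applied here to edgeR, so the calls are not the study's own. The totals of 18157161 to 26365969 counts limit genes such as Dlk1. The test was tested on simulated data. The members and gene lists were chosen with earlier results of these data known. All 10 members were named, and from the other lists each gene past both thresholds, or the 3 with the smallest P where fewer than 3 passed, with Igf2, Igf2r and Peg10. Copg2, Igf1r and Insr were added after their values were seen, as were the reads of Usp29. A gene of the partner list is not reported here. Alternatives were DESeq2 1.42.0, limma-trend (limma 3.58.1), RLE and upper-quartile factors, no filter, a minimum of 1 CPM in 3 mice, the robust option, the replicate number as a block, a 2-fold limit, P alone, adjusted P below 0.1, and each mouse left out.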

Additional observations from a re-analysis of the deposited data

Results flagged for a closer look

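Of 18 measures examined in the 4 BLM mice for a mouse far from the other 3 (gap over range, against Dixon's 95% critical value), 2 stood out, and chance alone gives about 1 in 20. Plagl1 in BLM 1 lay below the other BLM mice, with a gap over range of 0.8813 on the log2 CPM scale. The total count of BLM 4, at 19002242, lay above the other totals of 18436336 to 18452895, with a gap over range of 0.9707.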

How the results depend on the processing

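Over the alternatives, 132 of 149 values of single members kept their sign and their side of the thresholds, 9 lost a call, 2 gained one (H19, without the filter and without BLM 2) and 6 changed sign. The changes of sign were all in genes that did not pass: Meg3 without BLM 3 (0.0273) and without BLM+HBO 1 (0.0805), and Ndn without BLM 1 (0.00050), BLM 3 (0.0463), BLM+HBO 1 (0.0218) and BLM+HBO 3 (0.0014), with ranges over the mice left out of -0.54 to 0.0805 for Meg3 and -0.15 to 0.0463 for Ndn. With each mouse left out in turn, genes past both thresholds ranged from 659 to 1914 over all genes, from 0 to 4 for members, from 0 to 5 for cluster neighbours, from 0 to 2 for other imprinted genes and from 0 to 2 for partner genes, and genes at adjusted P below 0.05 from 0 to 267 over all and from 0 to 1 for members. Without the filter on low counts, 1940 genes passed both thresholds, 2 of them cluster neighbours and 2 other imprinted genes, and 387 genes had an adjusted P below 0.05, among them 2 members, Peg3 (edgeR adjusted P 0.00994, range over alternatives 0.00994 to 0.802) and Grb10 (0.0315, range 0.0315 to 0.802). DESeq2 gave 2 cluster neighbours past both thresholds and 147 genes at adjusted P below 0.05, against 0 by edgeR. A fold change above 2 left 509 genes, 1 member (Peg3), 0 other imprinted genes and 0 partner genes, and P alone gave 1861 genes, 3 cluster neighbours, 3 other imprinted genes and 4 partner genes. The cause of these changes was not tested. Dlk1 was not tested under the filter of 1 CPM in 3 mice.

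The labels do not say that replicate numbers pair the mice. The correlations of same-numbered deviations were -0.0080, -0.0660 and 0.161, and those of differently numbered mice ran from -0.179 to 0.165. These values are too few to decide whether the numbers pair the mice. With the number as a replicate block, 1258 genes, 3 members, 0 cluster neighbours and 2 partner genes passed both thresholds, and Plagl1 had a log2 fold change of 0.63 (edgeR adjusted P = 0.455).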

Other observations

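The genes whose log2 CPM over the 7 mice was most like that of a called member were read off as a description, out of 17464 genes searched, where such values are the highest of many and rest on few mice. For Grb10 they were Ubtd1 (Pearson r 0.994), Olfml2b (0.992) and Klhl33 (0.992), and for Peg3 they were Apoe (0.989), Ap2m1 (0.987) and Cd109 (0.987). For Mest they were Kcnt1 (0.991), Frmpd3 (0.990) and Unc5b (0.990), and for Plagl1 they were Vnn3 (0.995), Abtb1 (0.984) and Ankrd44 (0.984). The points share the 2 groups and the libraries, and BLM+HBO 1 lies at the end of the range for each of these members.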
